A study of Mus musculus with 15 samples.

Results

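The epidermal growth factor (EGF) family ligands and the ERBB receptors that bind them were followed as a set of 10 genes, 7 encoding ligands (Areg, Ereg, Epgn, Hbegf, Btc, Tgfa and Nrg1) and 3 encoding receptors (Egfr, Erbb2 and Erbb3). They were taken by gene symbol from the table of read counts, where they are 10 of 78298 genes (Nrg1 is listed under a further identifier that had no read in any library), and 7 of the 10 carried enough reads to be tested. The series holds 15 poly-A RNA libraries, 3 for each of 5 conditions, of organoids grown in Matrigel from mouse small intestinal epithelium. Halo-NLS control organoids carried L30prom_V5-Halo-GDGAGLIN-NLS_IRES_Puro, a HaloTag sent to the nucleus and driven by the weak, ubiquitous L30 promoter. SOX9-Halo_budding organoids carried L30prom_Sox9-GDGAGLIN-Halo-V5_IRES_Puro, and SOX9-mEGFP_budding organoids carried L30prom_Sox9-GDGAGLIN-mEGFP-V5_IRES_Puro. The spheroid conditions came from these SOX9 lines after a further transduction: SOX9-Halo_spheroid cultures also carried L30prom_H2B-GDGAGLIN-mEGFP-V5_IRES_Zeo, and SOX9-mEGFP_spheroid cultures also carried L30prom_H2B-GDGAGLIN-mScarletI-V5_IRES_Neo. All cultures had been transduced with lentivirus and selected with antibiotics. Every condition was a single stable line sampled in triplicate at nearby passages, so the p-values below measure the spread between samples of 1 line. Morphology, time in culture and the histone transgene cannot be told apart between budding and spheroid cultures of a line. Between spheroids and Halo-NLS, the SOX9 transgene cannot be told apart from these either.

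EGF family ligands are made as membrane-anchored precursors, and metalloproteases cut them from the cell surface. Amphiregulin, epiregulin, epigen, TGF-alpha, HB-EGF and betacellulin bind the EGF receptor, and some of them, HB-EGF and betacellulin included, bind ERBB4 as well. Neuregulins bind ERBB4, and some of them also ERBB3. ERBB2 has no known ligand and ERBB3 has little kinase activity, so both signal as partners in receptor dimers, which feed the RAS-MAPK and PI3K-AKT pathways. In the small intestine, Paneth cells and the stroma are known sources of these ligands, and organoid media usually supply EGF for crypt growth.

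Promoter sequences are shown for the 4 members that passed the test in at least 1 comparison and had an entry in the RefSeq table used here, which covered 6 of the 10 members. Each is the 250 bases before the annotated transcription start on GRCm38.p6, an older build than the mm39 build of the read counts, written 5′ to 3′ on the plus strand, from which all 4 genes are transcribed.
Areg chr5:91139349-91139598: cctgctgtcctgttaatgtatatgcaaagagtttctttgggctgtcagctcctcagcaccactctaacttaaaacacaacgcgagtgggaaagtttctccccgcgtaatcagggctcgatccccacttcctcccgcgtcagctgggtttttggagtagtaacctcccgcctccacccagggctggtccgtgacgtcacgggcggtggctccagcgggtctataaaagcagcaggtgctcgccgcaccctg
Tgfa chr6:86194972-86195221: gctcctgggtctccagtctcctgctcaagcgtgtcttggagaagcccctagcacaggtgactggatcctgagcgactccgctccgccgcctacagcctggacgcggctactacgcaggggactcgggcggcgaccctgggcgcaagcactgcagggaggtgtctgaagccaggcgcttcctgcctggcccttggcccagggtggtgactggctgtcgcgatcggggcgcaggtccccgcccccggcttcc
Egfr chr11:16751953-16752202: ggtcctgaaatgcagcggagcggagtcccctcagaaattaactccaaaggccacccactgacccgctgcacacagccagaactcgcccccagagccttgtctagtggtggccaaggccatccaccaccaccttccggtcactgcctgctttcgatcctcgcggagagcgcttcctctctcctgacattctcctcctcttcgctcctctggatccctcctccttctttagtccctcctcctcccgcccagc
Erbb2 chr11:98412234-98412483: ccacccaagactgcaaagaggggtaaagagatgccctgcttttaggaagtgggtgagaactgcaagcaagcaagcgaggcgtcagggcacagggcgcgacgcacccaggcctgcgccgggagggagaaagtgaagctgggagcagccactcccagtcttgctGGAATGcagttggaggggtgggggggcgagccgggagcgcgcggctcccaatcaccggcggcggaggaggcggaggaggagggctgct
The capitals in Erbb2 mark GGAATG, a TEAD motif, 88 bases before the start. It was the only match in the 6 windows when both strands were searched for GGAATG, for the AP-1 motif TGANTCA and for the SOX motifs ACAAAG and ACAATG, none of which overlaps another in these windows. Among 32851 promoter windows of the same length, 12.6% held GGAATG, 6.75% TGANTCA, 16.5% ACAAAG and 10.7% ACAATG. The GC content of the windows was 57.2% for Areg, 69.2% for Tgfa, 60.8% for Egfr and 66% for Erbb2.

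Libraries held 28062722 to 40559766 reads assigned to genes. Sox9 ran from 305 to 769 normalized counts in Halo-NLS and from 6487 to 23654 in the libraries of the SOX9 conditions, reads of transgene and endogenous gene together, except SOX9-Halo_budding replicate 1 at 1336. A normalized count is a read count scaled to a common library size by the trimmed mean of M values. The 8 markers of intestinal epithelium summed to 4712 to 9568 CPM (reads scaled to a fixed library size). Krt18 had its highest means in both spheroid conditions. Krt8 was highest in SOX9-mEGFP_spheroid (mean of 150222 normalized counts), but lower in SOX9-Halo_spheroid (66745) than in Halo-NLS (93365). Of the 8 markers, 5 fell in SOX9-Halo_spheroid against Halo-NLS and 2, the intestinal transcription factors Cdx1 and Cdx2, in SOX9-mEGFP_spheroid. In SOX9-Halo_spheroid Cdx1 was at 2.37 to 11.7, Krt20 at 5.68 to 19.0 and Cdx2 at 74.7 to 99.3 normalized counts, against Halo-NLS means of 12287, 8097 and 14708. Markers of other tissues summed to at most 11.4 CPM for the immune list and 3.71 CPM for the mesenchymal, endothelial and neural lists. Dcn, Twist1, Sox10 and Gfap had at most 3 reads in every library. Within these low lists, Cd68 rose in both spheroid conditions against Halo-NLS (means of 163 and 166 against 27.4 normalized counts), Csf1r in SOX9-mEGFP_spheroid (107 against 21.3) and Des in SOX9-Halo_spheroid (27.2 to 55.8 against 0 to 8.80). Others in these lists fell: Pdgfrb in SOX9-mEGFP_spheroid and SOX9-Halo_spheroid (means of 0.925 and 1.30 against 46.9) and Itgam in SOX9-Halo_spheroid (0.315 against 40.7). Csf1r was lower in SOX9-Halo_spheroid (5.04 against 21.3) without passing the test. Summed enterocyte markers lay at 4184 to 8664 CPM in Halo-NLS, 124 to 348 in SOX9-mEGFP_spheroid and 1.78 to 5.07 in SOX9-Halo_spheroid, and enteroendocrine markers at 300 to 941, 0.454 to 2.27 and 0.197 to 0.353. All 6 Paneth cell markers fell in SOX9-Halo_spheroid against Halo-NLS and 5 of 6 in SOX9-mEGFP_spheroid (median log2 fold changes of -10.2 and -7.17), where Mmp7 alone rose, by 6.49. Through Mmp7 the Paneth sum was still 1119 to 1357 CPM in SOX9-mEGFP_spheroid, beside 1508 to 1941 in Halo-NLS and 3.27 to 5.89 in SOX9-Halo_spheroid. Stem cell markers summed to 147 to 429 CPM in Halo-NLS, 46.2 to 76.7 in SOX9-mEGFP_spheroid and 20.5 to 31.0 in SOX9-Halo_spheroid, although Lgr5 rose in SOX9-mEGFP_spheroid. The part of these genes and cell types in the changes below was not tested, and in bulk RNA fewer cells of a type and less RNA per cell cannot be told apart. Halo-NLS replicate 3 had reads on the most genes, 40375 against 24214 in replicate 2, and results that rest on it are given without it. A gene is said to have risen or fallen where edgeR's quasi-likelihood test gave a Benjamini-Hochberg adjusted p of at most 0.01 over 17560 genes, with a change of at least 2-fold and a mean of at least 10 normalized counts.

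Among the tested members, Hbegf and Egfr were higher in both spheroid conditions than in Halo-NLS and than in the budding organoids of the same line. Hbegf rose 4.91- to 9.56-fold and Egfr 2.06- to 3.23-fold. Areg and Erbb2 fell in SOX9-Halo_spheroid against Halo-NLS, Tgfa rose in SOX9-mEGFP_spheroid against Halo-NLS, and Btc and Erbb3 passed the test in no comparison. Against Halo-NLS, SOX9-Halo_spheroid had 2 of 7 members higher and 2 lower, where 28.9% of all genes were called (13.6% higher, 15.3% lower). SOX9-mEGFP_spheroid had 3 higher and none lower, where 27.5% of all genes were called (15.3% higher, 12.1% lower). DESeq2 gave the same counts in both. The members whose libraries did not overlap were 4 of 7 and 3 of 7, where 54.8% and 56.5% of all genes did not overlap. The 4 comparisons with Halo-NLS share its 3 libraries.

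**Figure D1:**
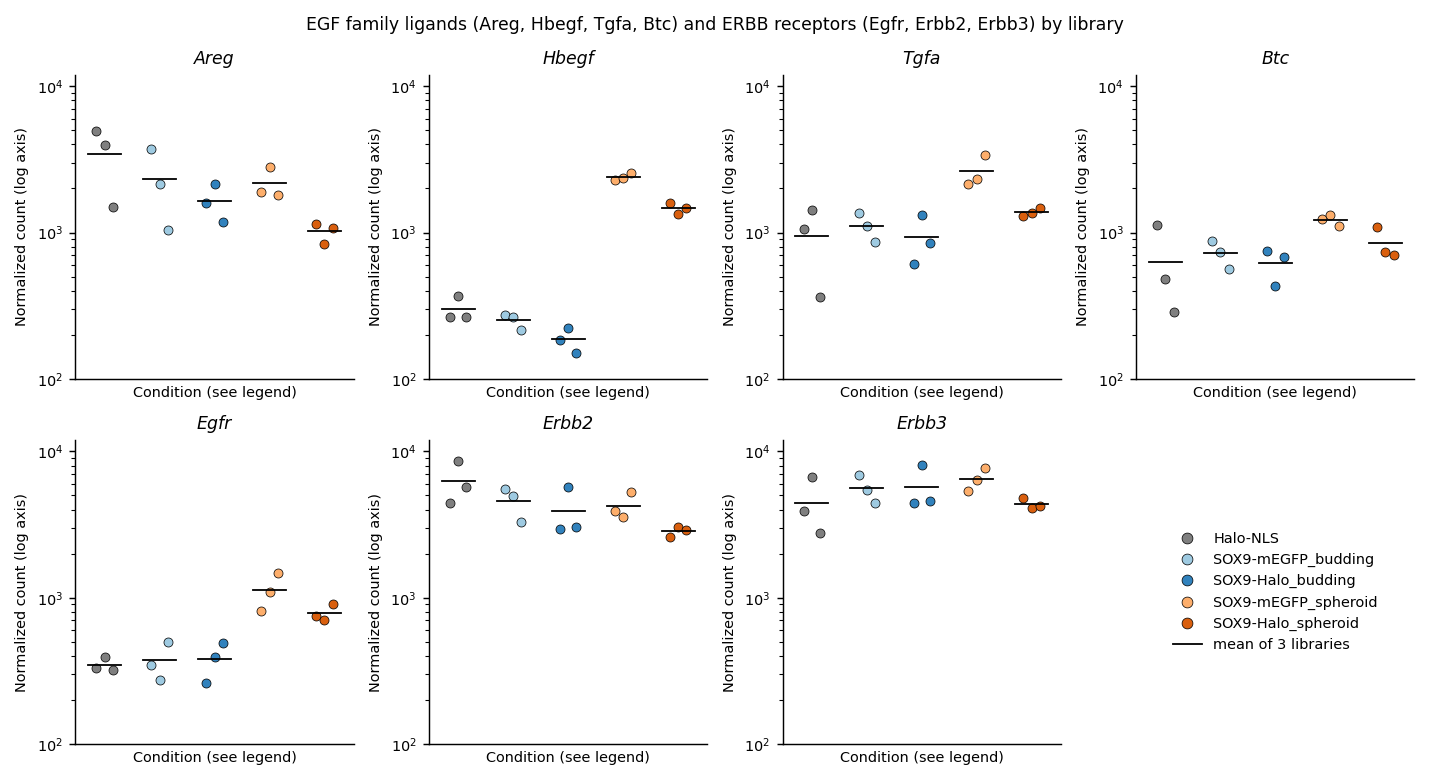
Normalized counts (log axis) of the 7 tested members in each of 15 libraries, coloured by condition, with the mean of 3 libraries as a line. Hbegf lies between 1344 and 2553 in the 6 spheroid libraries and between 151 and 371 in the other 9.

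Of the tested ligands among the members, Hbegf, which encodes HB-EGF, a ligand that binds heparan sulphate, moved most. It (ENSMUSG00000024486) lies on chromosome 18 at 36637980 to 36649677 (mm39, minus strand). Its normalized counts were 265.3, 370.6 and 264.0 in Halo-NLS, 273.3, 262.7 and 216.5 in SOX9-mEGFP_budding, and 183.0, 223.8 and 151.2 in SOX9-Halo_budding. They were 2290.5, 2348.1 and 2553.4 in SOX9-mEGFP_spheroid and 1599.1, 1344.2 and 1478.2 in SOX9-Halo_spheroid. Every spheroid library was above every other library, and the replicates of each spheroid condition differed little, with standard deviations of 138 around 2397 and 128 around 1474. The log2 fold change was 2.30 (SE 0.21, 95% interval 1.84 to 2.75, adjusted p = 4.81e-07) in SOX9-Halo_spheroid against Halo-NLS. In SOX9-mEGFP_spheroid against Halo-NLS it was 3.00 (SE 0.22, 95% interval 2.53 to 3.46, adjusted p = 1.18e-07). Within the lines, spheroids exceeded budding organoids by 2.99 (SE 0.22, adjusted p = 6.02e-08) for SOX9-Halo and by 3.26 (SE 0.22, adjusted p = 1.03e-07) for SOX9-mEGFP on the log2 scale. These 4 calls held under every alternative fit that was run. Genes of chromosome 18 had a median log2 fold change of 0.80 in SOX9-mEGFP_spheroid against Halo-NLS and 0.44 against SOX9-mEGFP_budding, where the medians of all genes were 0.03 and -0.04. In the SOX9-Halo line the corresponding medians for the chromosome were 0.21 and -0.05.

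**Figure D2:**
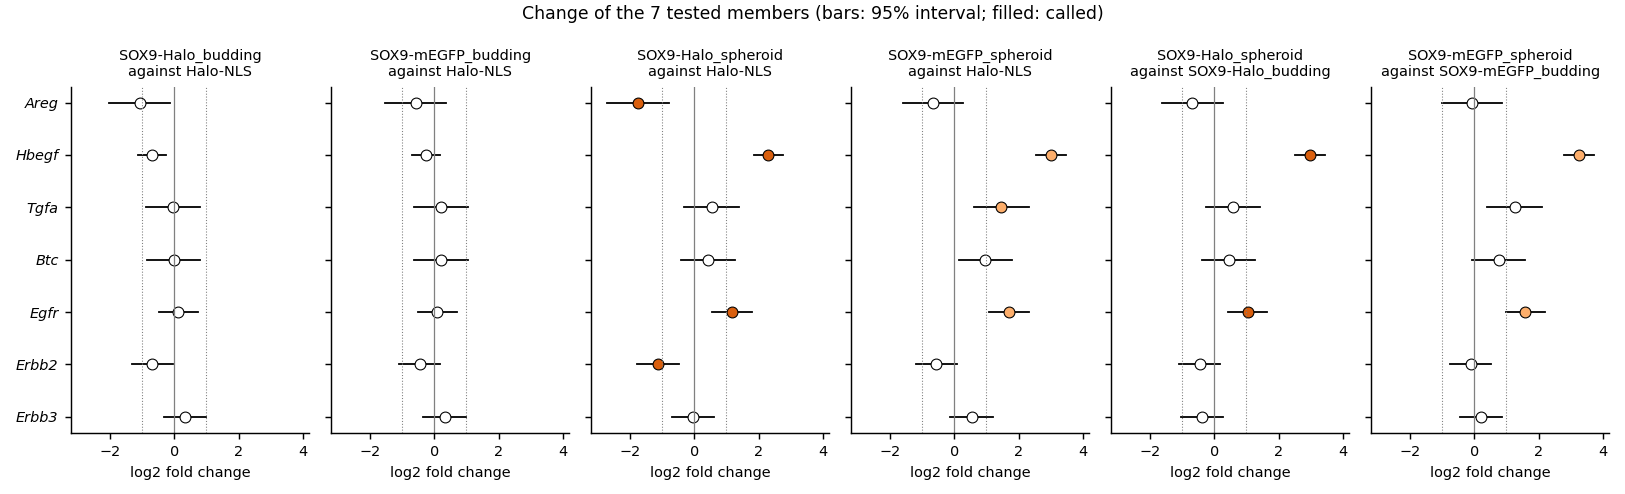
Log2 fold change of the 7 tested members (points) with 95% intervals (bars) in 6 comparisons. Filled points passed the test and dotted lines mark 2-fold. Hbegf stands at 2.30 to 3.26 in the 4 panels with spheroids and at -0.69 and -0.26 in the panels with budding organoids.

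Areg, which encodes amphiregulin, had the highest level of any member. The gene (ENSMUSG00000029378) lies on chromosome 5 at 91287451 to 91296291 (plus strand). Its normalized counts were 4901.1, 3946.3 and 1493.3 in Halo-NLS, and 1151.3, 835.2 and 1069.5 in SOX9-Halo_spheroid, where all 3 libraries lay below the lowest control. Areg fell by 1.76 on the log2 scale between these conditions (SE 0.45, 95% interval -2.72 to -0.80, adjusted p = 0.00475), to 0.296 of the control level. The call was lost when 1 of 5 libraries was left out, with -1.41 (adjusted p = 0.02) without Halo-NLS replicate 1, -1.64 without Halo-NLS replicate 2, and -1.85, -1.65 and -1.82 without SOX9-Halo_spheroid replicates 1, 2 and 3. Without Halo-NLS replicate 3, the low control, the value was -2.12 (adjusted p = 0.00087). The other conditions spread widely: SOX9-mEGFP_budding libraries held 3717.2, 2157.8 and 1034.0, SOX9-Halo_budding libraries 1588.0, 2133.8 and 1170.7, and SOX9-mEGFP_spheroid libraries 1900.9, 2799.7 and 1808.6. All 3 of these conditions overlapped Halo-NLS. SOX9-Halo_spheroid also lay below SOX9-Halo_budding in every library, but the difference of -0.68 (SE 0.44, 95% interval -1.62 to 0.26, adjusted p = 0.244) did not pass the test.

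Tgfa (ENSMUSG00000029999) encodes TGF-alpha and lies on chromosome 6 at 86172041 to 86252728 (plus strand). Its normalized counts were 1057.3, 1435.5 and 362.0 in Halo-NLS, 1359.3, 1104.8 and 857.3 in SOX9-mEGFP_budding, and 611.8, 1321.4 and 848.8 in SOX9-Halo_budding. They reached 2158.3, 2332.1 and 3409.6 in SOX9-mEGFP_spheroid, and were 1302.9, 1369.7 and 1470.1 in SOX9-Halo_spheroid. The SOX9-mEGFP_spheroid libraries stood above all others, while SOX9-Halo_spheroid overlapped Halo-NLS. Tgfa rose in SOX9-mEGFP_spheroid against Halo-NLS by 1.47 (SE 0.40, 95% interval 0.61 to 2.32, adjusted p = 0.00752). This call was lost in 12 of 23 alternative fits, including 1.42 (adjusted p = 0.04) with the 6 libraries compared alone, 1.08 (adjusted p = 0.016) without Halo-NLS replicate 3, 1.55 without Halo-NLS replicate 1, and 1.58, 1.53 and 1.22 without SOX9-mEGFP_spheroid replicates 1, 2 and 3. The rest of the losses came from leaving out libraries of conditions outside the comparison, with values of 1.41 to 1.48. Against SOX9-mEGFP_budding the difference was 1.25 (SE 0.40, adjusted p = 0.028), short of the threshold although the groups did not overlap. It passed with only the libraries compared (1.22, adjusted p = 0.0056), without the low-count filter (adjusted p = 0.00032), without Halo-NLS replicate 3 (adjusted p = 0.0039) and at a threshold of 0.05.

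Btc (ENSMUSG00000082361) encodes betacellulin and lies on chromosome 5 at 91505120 to 91550883 (minus strand). Normalized counts of 1117.4, 480.8 and 285.3 were found in Halo-NLS, 1241.5, 1321.7 and 1111.5 in SOX9-mEGFP_spheroid and 1090.9, 735.0 and 702.2 in SOX9-Halo_spheroid. The control libraries were so far apart that both spheroid conditions overlapped them. The log2 fold changes were 0.96 (SE 0.39, 95% interval 0.13 to 1.80, adjusted p = 0.0519) for SOX9-mEGFP_spheroid and 0.42 (SE 0.39, adjusted p = 0.386) for SOX9-Halo_spheroid. Without Halo-NLS replicate 1, the high control, both passed, at 1.68 (adjusted p = 0.0007) and 1.14 (adjusted p = 0.0077). SOX9-mEGFP_spheroid also passed without the low-count filter (1.00, adjusted p = 0.0075). Budding libraries held 880.7, 739.3 and 559.1 for SOX9-mEGFP and 743.9, 433.0 and 679.0 for SOX9-Halo. SOX9-mEGFP_spheroid lay above SOX9-mEGFP_budding in every library, by a log2 fold change of 0.75 (SE 0.39, adjusted p = 0.178).

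Ereg, Epgn and Nrg1 were at or near the detection limit, and no fold change is given for them. Ereg (ENSMUSG00000029377), the gene for epiregulin, had 1 read in each of 4 libraries and none in the other 11. Epgn (ENSMUSG00000035020), the gene for epigen, had 1 to 6 reads in every library, or 4 in all in Halo-NLS, 10 in SOX9-mEGFP_budding, 13 in SOX9-Halo_budding, 6 in SOX9-mEGFP_spheroid and 12 in SOX9-Halo_spheroid. Neither gene reached 7 reads in any library. Nrg1 (ENSMUSG00000062991), the gene for neuregulin-1, had 5, 1 and 14 reads in Halo-NLS, 3, 0 and 3 in SOX9-mEGFP_budding, 7, 2 and 2 in SOX9-Halo_budding, 0, 0 and 0 in SOX9-mEGFP_spheroid and 2, 0 and 0 in SOX9-Halo_spheroid. Of its 39 reads, 14 came from Halo-NLS replicate 3. A count of 0 allows up to 3 reads per library, and no test was run on these 3 genes.

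Of the receptors, Egfr, which encodes the EGF receptor, was the only member besides Hbegf to rise in both lines. The gene (ENSMUSG00000020122) lies on chromosome 11 at 16702198 to 16868158 (plus strand). Its normalized counts were 330.7, 394.7 and 321.8 in Halo-NLS, 349.9, 275.2 and 496.0 in SOX9-mEGFP_budding and 261.7, 394.1 and 487.8 in SOX9-Halo_budding. They were 814.7, 1092.4 and 1474.3 in SOX9-mEGFP_spheroid and 746.2, 704.7 and 900.3 in SOX9-Halo_spheroid. All 6 spheroid libraries were above all 9 others. In the SOX9-mEGFP line Egfr rose by 1.69 (SE 0.29, 95% interval 1.07 to 2.31, adjusted p = 0.000293) against Halo-NLS and by 1.59 (SE 0.29, 95% interval 0.97 to 2.21, adjusted p = 0.00067) against budding organoids on the log2 scale. In the SOX9-Halo line the rise was 1.17 (SE 0.29, 95% interval 0.55 to 1.78, adjusted p = 0.00379) against Halo-NLS and 1.04 (SE 0.29, 95% interval 0.43 to 1.65, adjusted p = 0.00865) against budding organoids. The SOX9-Halo values lie close to the thresholds. Against Halo-NLS the call was lost without Halo-NLS replicate 1 (1.14) or 3 (1.11, adjusted p = 0.015) and without SOX9-Halo_spheroid replicate 3 (1.03), and against budding organoids in 12 of 24 alternative fits, with values of 0.83 to 1.08. These included 0.83 (adjusted p = 0.048) and 1.07 without SOX9-Halo_budding replicates 1 and 2, and 1.08, 1.06 and 0.87 without SOX9-Halo_spheroid replicates 1, 2 and 3. With each library's trend over GC content removed, the values against Halo-NLS were 0.72 (adjusted p = 0.071) for SOX9-Halo_spheroid and 1.08 (adjusted p = 0.01) for SOX9-mEGFP_spheroid, neither past the test. Counting ignored strand, and the Egfr locus holds 2 antisense long non-coding RNA genes. Eldr had up to 334 reads in a library and Egfros up to 21. Reads there could not be assigned by strand, and those that matched Egfr and an antisense gene alike were left out as ambiguous.

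Erbb2 (ENSMUSG00000062312), which encodes the receptor without a known ligand, lies on the same chromosome at 98303203 to 98328542 (plus strand). Its normalized counts were 4428.0, 8660.2 and 5671.6 in Halo-NLS, 5539.4, 4926.1 and 3317.8 in SOX9-mEGFP_budding and 2951.6, 5711.6 and 3067.3 in SOX9-Halo_budding. They were 3902.1, 3557.7 and 5258.2 in SOX9-mEGFP_spheroid and 2615.4, 3054.4 and 2897.1 in SOX9-Halo_spheroid. Only SOX9-Halo_spheroid had all 3 libraries below the lowest control. There Erbb2 fell by 1.13 on the log2 scale (SE 0.30, 95% interval -1.78 to -0.49, adjusted p = 0.00633). The value was -0.81 (adjusted p = 0.043) without Halo-NLS replicate 2, the highest library, -1.20 without Halo-NLS replicate 3, and -1.06, -1.20 and -1.17 without SOX9-Halo_spheroid replicates 1, 2 and 3, none past the test. It was also short of it with scaling by library size alone (-0.84) and with the GC trend removed (-0.79). In SOX9-mEGFP_spheroid the difference from Halo-NLS was -0.56 (SE 0.30, 95% interval -1.20 to 0.08, adjusted p = 0.132). Erbb2 overlaps the antisense gene Mien1, which had up to 1007 reads in a library.

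Erbb3 (ENSMUSG00000018166), the gene of the receptor with little kinase activity of its own, lies on chromosome 10 at 128403392 to 128425811 (minus strand). Normalized counts of Erbb3 were 3909.1, 6726.7 and 2774.2 in Halo-NLS, 5401.9, 6337.4 and 7738.3 in SOX9-mEGFP_spheroid and 4788.9, 4098.7 and 4206.1 in SOX9-Halo_spheroid. Budding libraries held 6872.1, 5461.9 and 4413.3 for SOX9-mEGFP and 4424.1, 8019.6 and 4594.1 for SOX9-Halo. Every condition overlapped the controls. The log2 fold changes against Halo-NLS were -0.03 (SE 0.31, 95% interval -0.69 to 0.62) for SOX9-Halo_spheroid and 0.54 (SE 0.31, 95% interval -0.12 to 1.20) for SOX9-mEGFP_spheroid. With adjusted p-values of 0.937 and 0.158, neither passed the test.

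The budding organoids carried the SOX9 transgenes as well, and no member passed the test in them. In SOX9-Halo_budding against Halo-NLS, edgeR called 0 of 7 members, where 3.75% of all genes were called (2.49% higher, 1.26% lower). DESeq2 called 0 too, and 3 members (Hbegf, Areg and Erbb2, all lower) had an unadjusted p under 0.05 (37.5% of all genes). Hbegf was the 1 member whose groups did not overlap (29.7% of all genes), at -0.69 (SE 0.21, 95% interval -1.13 to -0.25, adjusted p = 0.0325), so it leaned away from the rise seen in spheroids. In SOX9-mEGFP_budding against Halo-NLS, edgeR and DESeq2 called 0 of 7 members (2.76% of all genes with edgeR, 1.99% higher and 0.763% lower). Of the 7, 0 had an unadjusted p under 0.05 (34.4% of all genes). All 7 overlapped (32.5% of all genes did not), and the log2 fold changes ran from -0.58 for Areg to 0.32 for Erbb3.

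Within the lines, spheroids against budding organoids gave 2 members higher and none lower in each line. These were Hbegf and Egfr in both, where 25.3% of all genes were called in the SOX9-Halo line (10.5% higher, 14.7% lower) and 16.4% in the SOX9-mEGFP line (8.55% higher, 7.88% lower). Groups did not overlap for 3 members in the SOX9-Halo line (52.8% of all genes) and for 4 in the SOX9-mEGFP line (46.0% of all genes). The median log2 fold change of the 7 members was 0.45 and 0.75, beside -0.08 and -0.04 for all genes. When budding organoids of the SOX9-Halo line were set against those of the SOX9-mEGFP line, edgeR and DESeq2 called 0 of 7 members. With edgeR 0.456% of all genes were called (0.29% higher and 0.165% lower). Of the 7, 0 had an unadjusted p under 0.05 (8.37% of all genes). The groups overlapped for every member (12.0% of all genes did not overlap), with log2 fold changes of -0.50 for Areg to 0.03 for Egfr.

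The spheroid lines differed more. All 7 members had lower values in SOX9-Halo_spheroid than in SOX9-mEGFP_spheroid, with log2 fold changes of -1.09 for Areg to -0.52 for Egfr, and 6 of the 7 did not overlap, all but Egfr (48.6% of all genes did not overlap). None passed the test with edgeR or DESeq2 (13.2% of all genes were called with edgeR, 3.59% higher and 9.58% lower). Hbegf came nearest, at -0.70 (SE 0.20, 95% interval -1.13 to -0.27, adjusted p = 0.0188), with Areg at an adjusted p of 0.0906 and Tgfa at 0.107. Genes of chromosome 18 had a median of -0.58 in this comparison. Hbegf, Areg and Tgfa had an unadjusted p under 0.05 (35% of all genes). Areg passed the test when the 6 libraries compared were fitted alone (-1.07) and without a filter on low counts (-1.09). The difference between the lines in the step from budding to spheroid was tested directly, and edgeR and DESeq2 called 0 of 7 members. With edgeR 7.39% of all genes were called (1.81% higher and 5.58% lower). Of the 7, 0 had an unadjusted p under 0.05 (23.9% of all genes). The 7 differences, SOX9-Halo minus SOX9-mEGFP, ran from -0.68 for Tgfa to -0.27 for Hbegf. For Egfr the difference was -0.55 (SE 0.40, 95% interval -1.41 to 0.31, adjusted p = 0.465), an interval that includes 0.

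To compare members with one another, counts were divided by the length of each gene's merged exons and expressed as CPM per kilobase. Over the 15 libraries Areg had the highest mean level at 51.5, followed by Erbb3 at 25.1 and Erbb2 at 24.0, and these 3 stood well above Tgfa at 6.10, Hbegf at 5.37, Btc at 5.29 and Egfr at 1.56. Epgn averaged 0.049, Nrg1 0.00513 and Ereg 0.0021 on this scale. In Halo-NLS the order of levels was Areg (84.1 ± 42.9, SD, n = 3), Erbb2 (34.4 ± 12.0), Erbb3 (21.1 ± 9.62), Tgfa (4.15 ± 2.37), Btc (4.11 ± 2.85), Hbegf (1.75 ± 0.357) and Egfr (0.900 ± 0.103). Neighbours in this order overlapped except for Erbb3 and Tgfa, and Hbegf and Egfr. In both spheroid conditions Hbegf stood in the place behind Areg, Erbb3 and Erbb2. In SOX9-mEGFP_spheroid its level was 14.0 ± 0.806, overlapping Tgfa at 11.5 ± 2.96 and above Btc at 8.02 ± 0.695. In SOX9-Halo_spheroid it was 8.59 ± 0.743, above Tgfa at 6.02 ± 0.367 in every library, while Tgfa and Btc at 5.52 ± 1.41 overlapped. With each gene's longest transcript as its length, Hbegf stayed behind Erbb2 but came close to it. The means of Hbegf and Erbb2 were then 24.72 and 24.75 in SOX9-mEGFP_spheroid, and 15.2 and 16.7 in SOX9-Halo_spheroid. Egfr had the lowest mean of the 7 tested members in all 5 conditions, at 2.91 ± 0.854 in SOX9-mEGFP_spheroid and 2.02 ± 0.266 in SOX9-Halo_spheroid.

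The summed level of the 7 ligands was 94.1 ± 47.3 CPM per kilobase in Halo-NLS, 67.3 ± 35.2 in SOX9-mEGFP_budding, 49.0 ± 12.3 in SOX9-Halo_budding, 86.4 ± 12.6 in SOX9-mEGFP_spheroid and 45.0 ± 5.63 in SOX9-Halo_spheroid (SD, n = 3 each). The sum varied as much within Halo-NLS as between conditions, but the shares of Areg and Hbegf in it separated spheroids from the rest. Areg made up 89% ± 1.03 of the ligands' sum in Halo-NLS, 81.3% ± 6.44 and 80.5% ± 4.18 in SOX9-mEGFP_budding and SOX9-Halo_budding, 60.7% ± 6.72 in SOX9-mEGFP_spheroid and 55% ± 2.55 in SOX9-Halo_spheroid. Hbegf made up 2.29% ± 1.30, 2.55% ± 1.10 and 2.23% ± 0.12 in the 3 conditions without spheroids, and 16.4% ± 2.50 and 19.1% ± 0.80 in the spheroids. Tgfa and Btc held 4.36% and 4.31% in Halo-NLS, 8.09% and 7.98% in SOX9-mEGFP_budding and 8.25% and 8.89% in SOX9-Halo_budding. They held 13.5% and 9.36% in SOX9-mEGFP_spheroid and 13.5% and 12.2% in SOX9-Halo_spheroid. The Btc share overlapped between budding and spheroid libraries in both lines. The Tgfa share did so in the SOX9-mEGFP line (up to 11.0% in budding libraries, from 10.1% in spheroids). With each gene's longest transcript as its length, Areg held 85.3% in Halo-NLS and 44.9% in SOX9-Halo_spheroid, and Hbegf 3.87% and 27.7%.

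**Figure D3:**
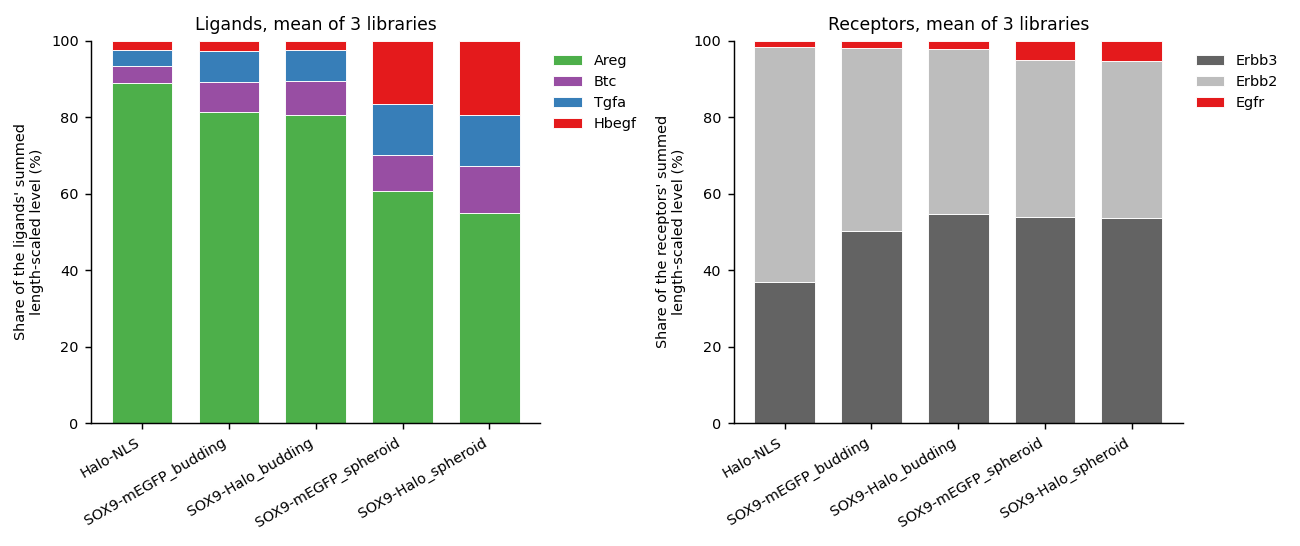
Share of each member in the summed length-scaled level (CPM per kilobase) of the ligands (left) and the receptors (right), in percent, mean of 3 libraries per condition; Ereg, Epgn and Nrg1 are too small to show. Areg falls from 89% in Halo-NLS to 55% in SOX9-Halo_spheroid, and Hbegf goes from 2.29% to 19.1%.

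Among the receptors, Egfr held 1.69% ± 0.368 of the summed level in Halo-NLS, 1.97% ± 1.04 in SOX9-mEGFP_budding, 2.13% ± 0.907 in SOX9-Halo_budding, 5.05% ± 0.669 in SOX9-mEGFP_spheroid and 5.27% ± 0.712 in SOX9-Halo_spheroid. Erbb2 went from 61.3% in Halo-NLS to 47.8% and 43.3% in the budding conditions and to 40.9% and 41% in the spheroids, with Erbb3 taking most of the rest. The share of Erbb2 was thus lower in all 4 SOX9 conditions, whereas that of Egfr was higher in spheroids. Ratios within a library do not depend on its scaling. The ratio of Hbegf to Areg was 0.0129, 0.0225 and 0.0423 in Halo-NLS, 0.0176, 0.0291 and 0.0501 in SOX9-mEGFP_budding and 0.0276, 0.0251 and 0.0309 in SOX9-Halo_budding. It was 0.288, 0.201 and 0.338 in SOX9-mEGFP_spheroid and 0.332, 0.385 and 0.330 in SOX9-Halo_spheroid. The lowest spheroid library was above the highest of the other 9. The ratio of Egfr to Erbb2 was 0.0214 to 0.0350 in Halo-NLS, 0.0262 to 0.0702 in SOX9-mEGFP_budding and 0.0324 to 0.0746 in SOX9-Halo_budding, against 0.0980 to 0.144 in SOX9-mEGFP_spheroid and 0.108 to 0.146 in SOX9-Halo_spheroid, again without overlap.

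**Figure D4:**
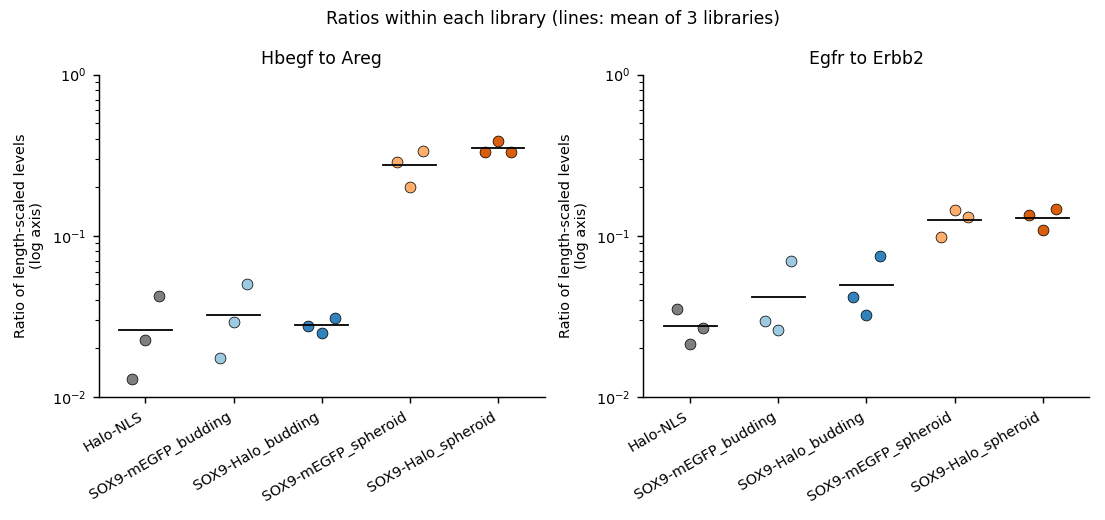
Ratio of length-scaled levels within each library (log axis) for Hbegf to Areg and for Egfr to Erbb2, by condition, with the mean of 3 libraries as a line. Hbegf to Areg is 0.201 to 0.385 in the 6 spheroid libraries and 0.0129 to 0.0501 in the other 9.

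Areg, Ereg, Epgn and Btc lie together on chromosome 5, from 91175323 to 91550883 on mm39, a span of 375.561 kb. Epgn and Ereg are 39.083 kb apart, Ereg and Areg 45.946 kb, and Areg and Btc 208.829 kb. The neighbours did not move as a block: Areg fell in SOX9-Halo_spheroid against Halo-NLS while Btc was at 0.42, and Ereg and Epgn were barely read anywhere. The remaining tested gene of the interval is the long non-coding RNA Gm19619 (91399459 to 91455916, minus strand), between Areg and Btc. It had 81, 42 and 16 reads in Halo-NLS, 2, 3 and 2 in SOX9-mEGFP_spheroid and 2, 0 and 0 in SOX9-Halo_spheroid. It was called lower in both spheroid conditions against Halo-NLS (adjusted p = 0.000135 and 3.53e-05), but with spheroid counts at or under 3 reads no fold change is given. Over the 15 libraries, genes whose log2 CPM tracked Areg closely among 11053 genes included Optn (r = 0.931) and Acadl (0.918). Those closest to Erbb3 were Zfp217 (0.929), Mon2 (0.927) and Cipc (0.915). These are descriptions over libraries that share conditions, with no test.

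Of the wider family, Egf and Nrg4 were tested. Egf, which encodes EGF itself, was rare, with 9.15, 3.44 and 13.8 normalized counts in Halo-NLS, 22.2, 40.1 and 32.4 in SOX9-mEGFP_spheroid and 48.6, 32.2 and 42.3 in SOX9-Halo_spheroid. All spheroid libraries were above the controls, and Egf rose by 1.84 (SE 0.45, adjusted p = 0.00355) and 2.21 (SE 0.44, adjusted p = 0.000767) on the log2 scale. The first of these calls was lost in 4 of 23 alternative fits, among them those without Halo-NLS replicate 2 and without SOX9-mEGFP_spheroid replicates 2 or 3, within values of 1.45 to 2.32. Budding organoids had 10.9, 20.8 and 23.4 for SOX9-mEGFP and 31.0, 22.4 and 30.2 for SOX9-Halo, and the differences of spheroids from them, 0.75 and 0.55, did not pass the test. Nrg4, which encodes neuregulin-4, an ERBB4 ligand, had 253.6, 198.5 and 75.4 normalized counts in Halo-NLS, 539.4, 407.0 and 100.4 in SOX9-mEGFP_budding and 388.2, 326.9 and 198.0 in SOX9-Halo_budding. It had 21.3, 18.02 and 14.3 in SOX9-mEGFP_spheroid and 7.11, 12.3 and 3.60 in SOX9-Halo_spheroid. Every spheroid library was far below every other. Nrg4 fell in both, with log2 fold changes of -3.29 (SE 0.61, adjusted p = 0.000526) and -4.499 (SE 0.67, adjusted p = 6.02e-05) against Halo-NLS, and of -4.27 (adjusted p = 0.000109) and -5.29 (adjusted p = 1.6e-05) against budding organoids of the same line, all called in every alternative fit. Nrg4 overlaps the antisense gene Fbxo22, which had up to 2803 reads. Nrg2 had at most 7 reads, and Nrg3 and the receptor gene Erbb4 at most 6, in each case with the highest count in Halo-NLS replicate 3.

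Around the ligands and receptors, 4 lists of genes that release the ligands, restrain the receptors, relay the signal or answer to it were counted in the same fit. Their counts are to be read beside the shares of all genes called, 13.6% higher and 15.3% lower in SOX9-Halo_spheroid against Halo-NLS and 15.3% higher and 12.1% lower in SOX9-mEGFP_spheroid. Of 9 tested genes for ligand shedding, 4 rose (Adam9, Adam17, Rhbdl2 and Rhbdf1) and none fell in SOX9-Halo_spheroid against Halo-NLS, with a median log2 fold change of 1.27 where that of all genes was -0.01. In SOX9-mEGFP_spheroid 4 rose, with Adam10 in place of Rhbdf1, and Frmd8 fell (median 0.67). Adam17, the main sheddase of Areg, Hbegf and Tgfa precursors, had 278 to 983 normalized counts in Halo-NLS, 2080 to 2193 in SOX9-mEGFP_spheroid and 2117 to 2805 in SOX9-Halo_spheroid, and rose by 2.03 (SE 0.38, adjusted p = 0.000525) and 2.22 (SE 0.38, adjusted p = 0.000207). The call in SOX9-mEGFP_spheroid was lost with only the libraries compared. Against budding organoids Adam17 was not called in either line, though for SOX9-Halo (1.19) it was called in 10 of 24 alternative fits. Adam9, another metalloprotease, had 249 to 961 normalized counts in Halo-NLS, 5773 to 8812 in SOX9-mEGFP_spheroid and 5213 to 7173 in SOX9-Halo_spheroid, and Rhbdl2, a rhomboid protease, had 37.9 to 66.6, 531 to 648 and 306 to 360. Adam9 rose by 3.79 and 3.52 and Rhbdl2 by 3.67 and 2.81 on the log2 scale (adjusted p of 3.46e-06 or less). Both also rose within the lines, Adam9 by 1.82 and 2.34 and Rhbdl2 by 1.27 and 1.25 for SOX9-Halo and SOX9-mEGFP. Within the SOX9-Halo line, Rhbdl2 lost its call without SOX9-Halo_budding replicates 2 or 3, without SOX9-Halo_spheroid replicate 3 and with only the libraries compared. Within the SOX9-mEGFP line, it did so without SOX9-mEGFP_budding replicates 2 or 3, or SOX9-mEGFP_spheroid replicates 1 or 2. The values within the lines were 1.05 to 1.61 over all alternative fits. In budding organoids against Halo-NLS, Adam9 and Rhbdl2 were called higher and Adam15 and Frmd8 lower for SOX9-Halo, where 3.75% of all genes were called (2.49% higher, 1.26% lower). For SOX9-mEGFP, Rhbdl2 was called higher and Frmd8 lower, where 2.76% of all genes were called (1.99% higher, 0.763% lower). The SOX9-Halo calls held in only 8 of 23 alternative fits for Adam9 (1.71) and in 19 of 23 for Rhbdl2 (1.54).

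Of 12 inhibitors and down-regulators of the receptors, 5 rose and 1 fell in SOX9-Halo_spheroid and 7 rose in SOX9-mEGFP_spheroid against Halo-NLS, with medians of 0.72 and 1.36 (28.9% and 27.5% of all genes were called in either direction). Sh3kbp1, an adaptor in receptor endocytosis, went from 50.3 to 66.7 normalized counts in Halo-NLS to 2638 to 2697 in SOX9-mEGFP_spheroid and 2470 to 2992 in SOX9-Halo_spheroid, a rise of 5.46 (SE 0.31, adjusted p = 1.7e-08) and 5.54 (SE 0.31, adjusted p = 5.77e-09). Socs5, which promotes receptor degradation, rose by 3.15 (SE 0.24, adjusted p = 1.7e-07) and 2.41 (SE 0.23, adjusted p = 7.87e-07), from 101 to 127 normalized counts to 987 to 1069 and 476 to 709. Both genes also rose from budding organoids to spheroids in each line. In budding organoids against Halo-NLS, 2 of the 12 were already called higher for each line (2.49% and 1.99% of all genes), Socs5 (1.22) and Lrig2 (1.55) for SOX9-Halo and Socs5 (1.36) and Sh3kbp1 (1.31) for SOX9-mEGFP. Socs5 lost its budding calls with only the libraries compared, without Halo-NLS replicates 2 or 3 and without replicate 3 of the budding line. The budding call for Sh3kbp1 held in 8 of 23 alternative fits. Lrig3, a leucine-rich repeat transmembrane protein of the LRIG family, fell in 1 line, with 719 to 1266 normalized counts in Halo-NLS, 515 to 655 in SOX9-mEGFP_spheroid and 6.30 to 9.46 in SOX9-Halo_spheroid. Its log2 fold changes against Halo-NLS were -6.82 (SE 0.35, adjusted p = 2.68e-09) in SOX9-Halo_spheroid and -0.68 (SE 0.25, adjusted p = 0.0376) in SOX9-mEGFP_spheroid, where it did not pass the test.

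**Figure D5:**
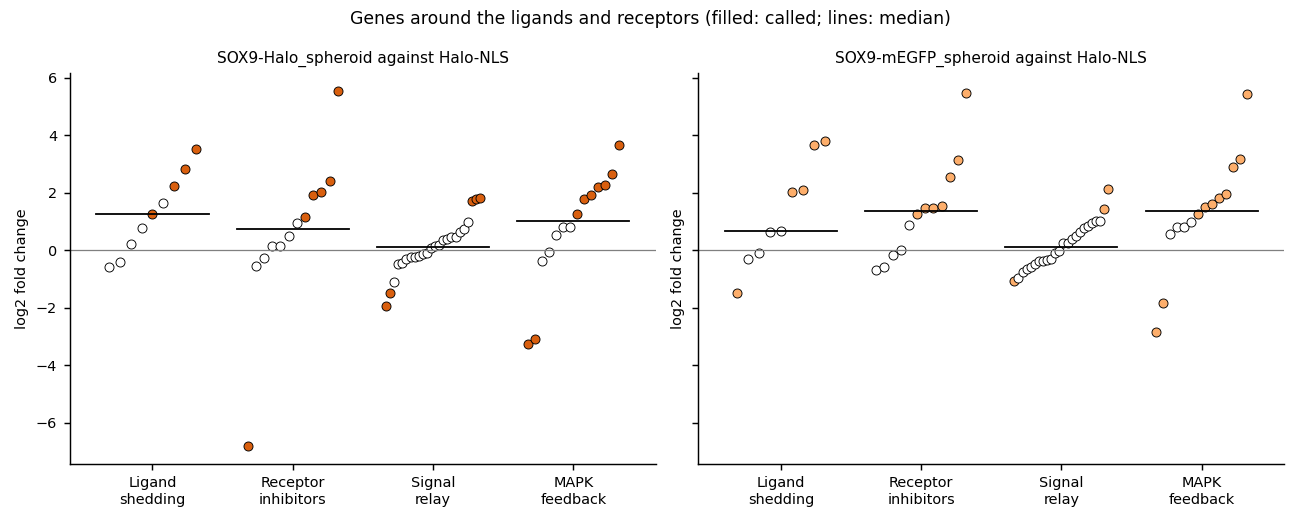
Log2 fold change of each tested gene in 4 lists around the EGF family in SOX9-Halo_spheroid (left) and SOX9-mEGFP_spheroid (right) against Halo-NLS. Filled points passed the test and lines are medians, which are 0.11 and 0.10 for signal relay and 1.03 and 1.36 for MAPK feedback.

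The 24 adaptors and kinases of the signal relay changed least as a list. In SOX9-Halo_spheroid 3 rose, Gab1 and Pik3cb among them, and 2 fell (Mapk3 and Map2k2; median 0.11), and in SOX9-mEGFP_spheroid 2 rose (Braf and Pik3ca) and Map2k2 fell (median 0.10). That is 5 and 3 of 24 genes, where 28.9% and 27.5% of all genes were called. Mapk3, which encodes the kinase ERK1, had 15238 to 19158 normalized counts in Halo-NLS, 11205 to 11230 in SOX9-mEGFP_spheroid and 3600 to 5529 in SOX9-Halo_spheroid. It fell by 1.94 (SE 0.255, adjusted p = 1.69e-05) in SOX9-Halo_spheroid and was at -0.64 (adjusted p = 0.0427) in SOX9-mEGFP_spheroid. Pik3cb, a catalytic subunit of PI3K, had 194 to 490 normalized counts in Halo-NLS and 1290 to 1297 in SOX9-Halo_spheroid, where it rose by 1.80 (SE 0.275, adjusted p = 7.53e-05), and it was at 0.96 (adjusted p = 0.0089) in SOX9-mEGFP_spheroid, short of the 2-fold threshold only. In budding organoids edgeR called 0 of the 24 against Halo-NLS (3.75% and 2.76% of all genes), with 15 and 16 at an unadjusted p under 0.05 for SOX9-Halo and SOX9-mEGFP (37.5% and 34.4% of all genes). DESeq2 called 3 and 2, all higher, where it called 1106 and 951 of 52932 genes higher.

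Of 14 genes induced by the MAPK cascade, most of them its feedback inhibitors, 7 rose and 2 fell in SOX9-Halo_spheroid and 8 rose and 2 fell in SOX9-mEGFP_spheroid against Halo-NLS, with medians of 1.03 and 1.36, where 28.9% and 27.5% of all genes were called. The 2 that fell were the same in both, Il17rd and Dusp5. Il17rd, also known as Sef, which holds active MEK and ERK in the cytoplasm, went from 160 to 246 normalized counts in Halo-NLS to 20.0 to 36.4 in SOX9-mEGFP_spheroid and 16.1 to 22.5 in SOX9-Halo_spheroid, a drop of -2.86 (SE 0.31, adjusted p = 3.84e-06) and -3.28 (SE 0.315, adjusted p = 7.65e-07). Dusp5, a nuclear ERK phosphatase, was at -1.84 (SE 0.33, adjusted p = 0.000439) and -3.10 (SE 0.35, adjusted p = 4.05e-06). Spry4, Etv5, Spred1 and Phlda1 rose in both. Phlda1 rose by 2.90 (SE 0.31, adjusted p = 3.27e-06) and 2.64 (SE 0.30, adjusted p = 4.34e-06), from 634 to 828 normalized counts to 4636 to 6085 and 4045 to 5033. Within the lines, spheroids against budding organoids had 6 of the 14 higher and 2 lower for SOX9-Halo and 4 higher and 1 lower for SOX9-mEGFP, where 25.3% and 16.4% of all genes were called. In budding organoids against Halo-NLS edgeR called 0 of the 14 (3.75% and 2.76% of all genes), with 4 and 5 at an unadjusted p under 0.05 for SOX9-Halo and SOX9-mEGFP (37.5% and 34.4% of all genes). DESeq2 called 2 higher and 1 lower for SOX9-Halo and 1 higher for SOX9-mEGFP. Of 52932 genes, DESeq2 called 1106 higher and 397 lower, and 951 higher and 274 lower, in these comparisons. These lists were drawn up with earlier results of these libraries known, so their counts are descriptions.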

How the data were processed

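The data are 15 poly-A RNA libraries of mouse organoids. The authors trimmed reads with cutadapt 4.5, kept unique STAR alignments to mm39 (GRCm39) and counted them per gene with HTSeq 2.0.2 (union mode, no strand). The deposited raw read counts were used here. Reads outside genes (1.83 to 6.09% of a library) and ambiguous reads (9.65 to 13.6%) were left out. The authors' DESeq2-normalized table and comparison tables, which hold their own fold changes and p-values, were not used.

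Counts were fitted with edgeR 4.0.16 in R 4.3.3 (filterByExpr by condition, TMM scaling, 1 coefficient per condition, glmQLFit and glmQLFTest, Benjamini-Hochberg adjustment over 17560 genes), with 10 residual degrees of freedom and a common biological coefficient of variation of 0.302. Genes were called at an adjusted p of 0.01, an absolute log2 fold change of 1 and a mean normalized count of 10. Standard errors were taken as the size of the log2 fold change over the root of F. The fit was tested on simulated data. Lengths, positions and overlapping genes came from GENCODE M39 (GRCm39), which held 78168 of the 78298 identifiers.

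Members and gene lists were chosen with earlier results of these data known. All members and the 5 remaining genes of the family were named, and of each list around them the 3 genes with the largest absolute change in SOX9-Halo_spheroid against Halo-NLS among those called with a mean of at least 100 normalized counts over those libraries. Genes tested inside a cluster of members within 500 kb of each other, and the 3 genes most like Areg and Erbb3, were named too. Some genes that these rules name are not reported here. All other list genes and the genes overlapping a member were named after their values were seen.

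Replicate numbers come from the sample titles. Same-numbered samples deviated together most evenly for SOX9-Halo budding and spheroid libraries (r of 0.403, 0.234 and 0.344 over 11100 genes). SOX9-mEGFP_budding also had a positive r in every number with SOX9-mEGFP_spheroid (lowest 0.0652), SOX9-Halo_budding (lowest 0.0402) and SOX9-Halo_spheroid (lowest 0.0717). So did Halo-NLS with SOX9-Halo_spheroid (lowest 0.00966). Each remaining pair of conditions had a negative r for some number. Single numbers went higher than these: Halo-NLS with SOX9-Halo_budding had 0.47, 0.817 and -0.0545 for replicates 1, 2 and 3. SOX9-mEGFP_budding with SOX9-Halo_budding had 0.74 for replicate 3. The alternatives were DESeq2 1.42.0, other scalings, filters and thresholds, only the libraries compared, a replicate block, each library left out, another gene length and, added after seeing the data, removal of each library's GC trend.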

Additional observations from a re-analysis of the deposited data

Results flagged for a closer look

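Lrig3, of the list of receptor inhibitors, was the 1 gene among those chosen by rule whose step from budding organoids to spheroids differed between the lines by the interaction test. It had 802 to 1178 normalized counts in SOX9-Halo_budding and 6.30 to 9.46 in SOX9-Halo_spheroid, against 825 to 1212 in SOX9-mEGFP_budding and 515 to 655 in SOX9-mEGFP_spheroid. The difference between the steps, SOX9-Halo line minus SOX9-mEGFP line, was -6.05 on the log2 scale (SE 0.42, adjusted p = 3.4e-07 in edgeR's quasi-likelihood test), and it was called in 23 of 23 alternative fits, with values of -6.22 to -5.84. Each line was 1 stable culture, so the lines and the cultures cannot be told apart.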

How the results depend on the processing

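The calls for Hbegf in all 4 comparisons with spheroids, and for Egfr between SOX9-mEGFP spheroids and budding organoids, held under every alternative. In SOX9-Halo_spheroid against Halo-NLS, the members called higher went from 2 to 1 with the GC trend removed and to 1 to 2 with single libraries left out, and those called lower from 2 to 1 with library sizes alone and with the GC trend removed, and to 0 to 2 with single libraries left out. In SOX9-Halo spheroids against budding organoids, 2 higher became 1 with library sizes alone and with only the libraries compared, and 1 to 2 with single libraries left out. Without the low-count filter 1 member (Areg) was called lower in SOX9-Halo_budding against Halo-NLS and 1 in SOX9-Halo_spheroid against SOX9-mEGFP_spheroid, the latter also with only the libraries compared. Leaving out that filter also brought Btc past the test in SOX9-mEGFP_spheroid against Halo-NLS (1.00, adjusted p = 0.0075). The same held for Tgfa in SOX9-mEGFP spheroids against budding organoids (1.25, adjusted p = 0.00032). The replicate block left the calls in SOX9-Halo spheroids against budding organoids as they were (Egfr 1.04), and with all libraries brought Btc past the test in SOX9-mEGFP_spheroid against Halo-NLS (1.12, adjusted p = 0.0095). Scaling by library sizes alone moved the median log2 fold change of all genes against Halo-NLS from between -0.011 and 0.034 to between 0.269 and 0.308.

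Signs turned only for members that were not called. Against Halo-NLS these were, in SOX9-Halo_spheroid, Btc with the GC trend removed (-0.02) and Erbb3 with library sizes alone (0.25), no low-count filter (0.01), the replicate block (0.03) and the GC trend removed (0.11). In SOX9-Halo_budding they were Btc with library sizes alone (0.28), no filter (0.01) and the block (0.11), Tgfa with library sizes alone (0.25) and the GC trend removed (0.02), and Egfr with the GC trend removed (-0.43). In SOX9-mEGFP_budding, the GC trend removed gave -0.43 for Btc and -0.47 for Egfr. The block gave 0.05 for Areg in SOX9-mEGFP spheroids against budding organoids and -0.01 for Erbb3 between the budding lines. With single libraries left out, the ranges were -0.29 to 0.39 for Erbb3 in SOX9-Halo_spheroid against Halo-NLS, -0.37 to 0.69 for Btc, -0.43 to 0.39 for Tgfa and -0.08 to 0.34 for Egfr in SOX9-Halo_budding, and -0.14 to 0.92 for Btc, -0.17 to 0.65 for Tgfa and -0.16 to 0.29 for Egfr in SOX9-mEGFP_budding. They were -0.49 to 0.44 for Areg and -0.36 to 0.04 for Erbb2 in SOX9-mEGFP spheroids against budding organoids, -0.87 to 0.03 for Areg, -0.19 to 0.25 for Egfr and -0.31 to 0.20 for Erbb3 between the budding lines, and -0.51 to 0.04 for Erbb2 in the difference between the lines' steps. The cause was not tested.

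Calls over all genes moved most for budding organoids. In SOX9-Halo_budding against Halo-NLS, 438 higher and 221 lower became 1068 and 109 with library sizes alone, 1933 and 424 without the filter, 1541 and 530 at an adjusted p of 0.05, 5 and 0 with only the libraries compared and 1106 and 397 with DESeq2. In SOX9-mEGFP_budding, 350 and 134 became 620 and 108, 1730 and 261, 1253 and 332, 65 and 38, and 951 and 274 in the same order. Between the budding lines, 51 and 29 became 116 and 164 without the filter, 87 and 85 at 0.05, 17 and 2 with only the libraries compared and 94 and 106 with DESeq2, and the 318 and 979 of the lines' steps became 584 and 1474 at 0.05. With library sizes alone, the split of 2392 higher and 2682 lower in SOX9-Halo_spheroid against Halo-NLS became 3102 and 2229, and that of 2690 and 2133 in SOX9-mEGFP_spheroid became 3333 and 1500.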
